A study of Mus musculus with 2 samples.

Results

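The common gamma chain cytokine system was described here through 10 of the 32285 genes counted, a list chosen by function with earlier results of these data known. They were the receptor chains Il2rb, Il2rg, Il7r, Il15ra, Il21r and Il4ra, the ligand Il15, and the feedback inhibitors Cish, Socs1 and Socs3. IL-2, IL-4, IL-7, IL-15 and IL-21 signal through receptors that share the gamma chain encoded by Il2rg. The partner chains differ, except that IL-2 and IL-15 share the beta chain encoded by Il2rb. These receptors act through JAK kinases and STAT factors to keep T and NK cells alive and dividing. CISH and the SOCS proteins are induced by those STAT factors and shut the receptors down, which makes them a feedback brake. In tumors this system is known for sustaining NK cells through IL-15, memory T cells through IL-7 and IL-15, and regulatory T cells through IL-2.

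Live CD45+ immune cells had been sorted from liver tumors of mice and profiled with droplet-based 3′ v3 single-cell RNA sequencing. The tumors were a Trp53 KO/MYC OE hepatocellular carcinoma (HCC) that had become resistant to lenvatinib. There were 2 libraries, 1 from tumors given lenvatinib, an inhibitor of several receptor tyrosine kinases, and 1 from tumors given lenvatinib and palbociclib, an inhibitor of CDK4 and CDK6 (combo). Both groups were male wild-type C57BL/6 J mice aged 6 to 8 weeks at the start, whose tumors came from hydrodynamic tail vein injection of plasmids for human MYC and for a guide against Trp53, and both had received lenvatinib before the assigned treatment. The mice behind each library were not counted in the sources used here, so pooling is unknown, and the deletion and transgene lie in the liver cells and not in the sorted immune cells. With 1 library per condition there was no replicate check and no test, and library, batch and treatment cannot be told apart. All ratios below are combo over lenvatinib and compare these libraries, and all 95% intervals cover counting error only.

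Cells had at most 6000 genes and at most 25% mitochondrial UMIs (unique molecular identifiers, 1 per captured RNA molecule), which left 14201 lenvatinib cells and 11613 combo cells with median depths of 5541 and 5754 UMIs. Both libraries shared 49 cell barcodes. Cells were placed in 9 classes by UMIs of a few marker genes, none of them a member, and no cell fell in more than 1 class. The classes held 2957 and 2310 CD8 T cells (Cd3e and Cd8b1), 346 and 436 CD4 T cells, 348 and 48 Foxp3 cells, 548 and 301 Trdc cells (gamma-delta T cells), 2679 and 1129 NK cells (Ncr1 without Cd3e), 459 and 528 B cells, 162 and 615 monocytes or macrophages (Mono/Mac), 623 and 1516 neutrophils and 128 and 162 dendritic cells (DC), under lenvatinib and combo respectively. A further 5951 and 4568 cells met no gate, and 43.9% and 43.6% of them held a Cd3e UMI. Levels are given as CPM, the UMIs of a gene per 1000000 UMIs of the class. Summed marker lists that the gates did not use were highest in the class they name in both libraries, except that dendritic genes under combo were at 593 CPM in DC and 618 in B cells. Neutrophil RNA in the other classes differed between libraries. The summed level of 4 neutrophil genes (S100a8, S100a9, Retnlg and Cxcr2) was 898 CPM in lenvatinib CD8 T cells and 10277 in combo CD8 T cells, 1372 and 20259 in NK cells, and 383 and 25964 in B cells. In Foxp3 cells it ran the other way, from 5829 to 2598, and Mono/Mac cells differed in makeup, with C1qa at 1208 CPM under lenvatinib and 105 under combo. The part of these differences in the results was not tested, apart from the values given beside them.

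Promoter letters were read for the members because feedback genes are textbook STAT5 targets. RefSeq promoters of GRCm38.p6, each 300 bases long (250 before the start site and 50 from it on), were found for 8 of the 10 members, and were searched for TTCNNNGAA, the palindrome of STAT factors, which reads alike on both strands. At least 1 match stood in 8.30% of all 32851 promoters and at least 2 in 0.457%. Cish, Il7r and Socs3 held matches, and the stretches below are shown because these were the 3 members with a match. Capitals mark the match.
Cish, chr9:107296654-107296683, plus strand: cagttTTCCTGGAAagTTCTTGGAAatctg
Il7r, chr15:9530000-9530028, minus strand: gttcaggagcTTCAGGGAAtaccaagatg
Socs3, chr11:117969502-117969530, minus strand: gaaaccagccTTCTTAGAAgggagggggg
The first of the pair in Cish began at the RefSeq start site, with 2 bases between the matches, within a Cish exon of the GENCODE annotation. The Il7r match began 142 bases and the Socs3 match 154 bases before the RefSeq start site, and both lie in an intron of the same gene in the GENCODE annotation. The other 5 members with a promoter held no match in this window. A match is a description of letters and not a measured binding site.

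Il2rb, the beta chain that binds IL-2 and IL-15 together with the gamma chain, lies on chromosome 15 from 78479256 to 78495271 of mm10. Its level was highest in NK cells in both libraries, at 1360.4 CPM (95% interval 1345 to 1376) under lenvatinib and 917 (898 to 937) under combo. Trdc cells followed at 926 and 615 CPM. Foxp3 cells had 913 CPM under lenvatinib, an interval that overlapped that of Trdc cells, and 378 (309 to 458) under combo. CD8 T cells had 590.1 and 342 CPM and CD4 T cells 589 and 387, and these 2 classes did not differ beyond their intervals under lenvatinib. Every class was lower in the combo library. The ratio was 0.674 (0.658 to 0.691) in NK cells, 0.664 (0.624 to 0.706) in Trdc cells, 0.656 (0.603 to 0.714) in CD4 T cells, 0.580 (0.562 to 0.598) in CD8 T cells and 0.414 (0.337 to 0.505) in Foxp3 cells.

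Il2rb also differed in classes that are not known for using it. Neutrophils had 113 CPM under lenvatinib and 25.5 under combo, B cells 112 and 29.0, Mono/Mac cells 72.1 and 22.8, and DC 43.7 and 16.3, with ratios of 0.226 to 0.374. The low levels thus stood in the same direction as the high ones, with ratios further from 1 than in NK, Trdc, CD4 T and CD8 T cells. When the B-cell level was subtracted as background, an alternative chosen after seeing the data, the ratio moved to 0.655 in CD8 T cells, 0.750 in CD4 T cells, 0.720 in Trdc cells and 0.712 in NK cells. Each cell was also thinned to 2000 UMIs to compare detection at equal depth. An Il2rb UMI was then found in 63.5% of lenvatinib and 47.0% of combo CD8 T cells, in 90.7% and 81.8% of NK cells, and in 18.6% and 6.27% of B cells as background. Median depths before thinning were 7138 and 5742 UMIs in CD8 T cells, 6892 and 7017 in NK cells, and 3253 and 3524 in B cells. The differences in CD4 T and Trdc cells lay close to the 1.5-fold mark, and 8 of 10 alternatives in CD4 T cells (0.675 to 0.783) and 6 of 10 in Trdc cells (0.668 to 0.748) did not reach it. Ptprc, which encodes CD45 and was used for the sort, was likewise lower in every class of the combo library, for example 1695 against 1141 CPM in CD8 T cells and 2296 against 1501 in NK cells.

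**Figure D1:**
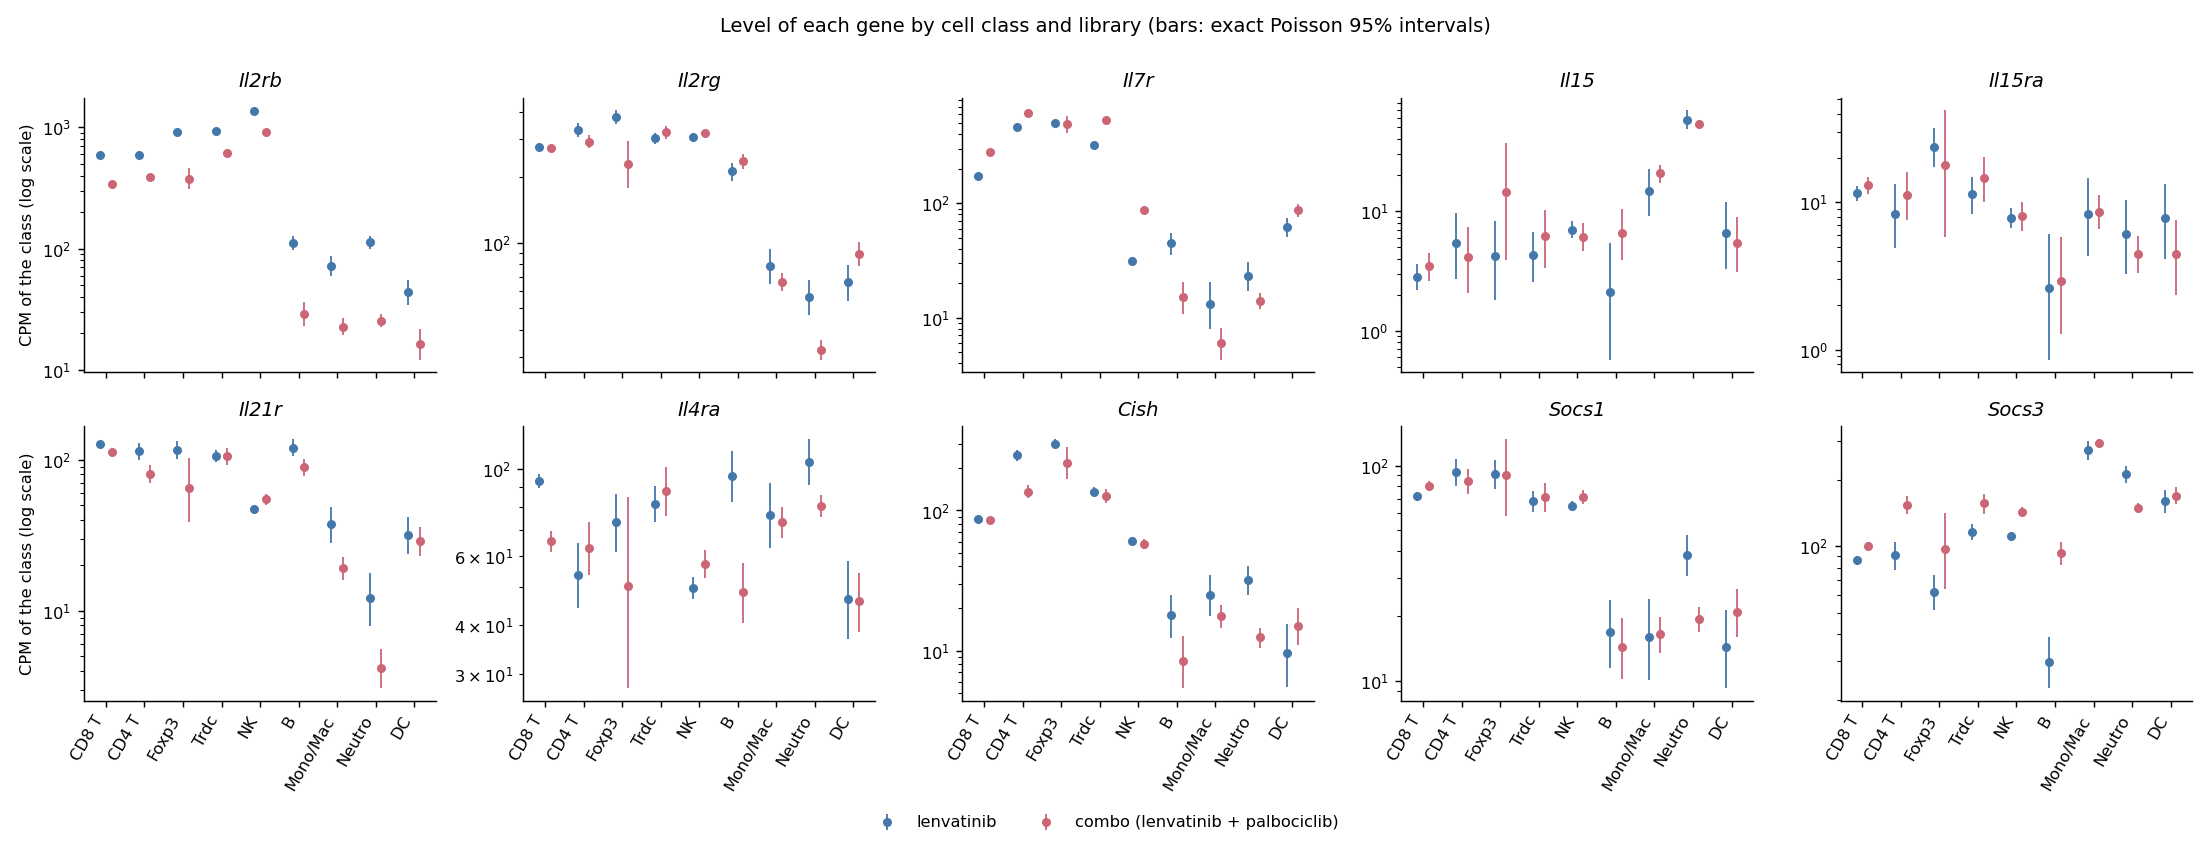
Level of each of the 10 genes (CPM of the class total, log axis) in 9 cell classes, with lenvatinib in blue and combo in red; points are class sums of 1 library and bars are exact Poisson 95% intervals. Il2rb sits lower under combo in all 9 classes, Il7r sits higher under combo in CD8 T, CD4 T, Trdc, NK and DC cells, and Il15 is highest in neutrophils in both libraries.

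Il7r encodes the IL-7 receptor alpha chain, which marks naive and memory T cells and also pairs with Crlf2 to bind TSLP. It lies on chromosome 15 from 9505788 to 9530176. Under lenvatinib its order of levels was led by regulatory and helper cells, with 501 CPM (469.9 to 534) in Foxp3 cells and 461 (432 to 491) in CD4 T cells, which overlapped. Under combo CD4 T cells led with 619 CPM (589.8 to 649.8), and Foxp3 cells with 494 (414 to 584) overlapped Trdc cells. Trdc cells had 324 and 534 CPM, CD8 T cells 172 and 279, and NK cells 31.3 and 87.5. The ratios were 1.65 (1.53 to 1.78), 1.62 (1.56 to 1.69) and 2.80 (2.52 to 3.10), against 1.34 (1.24 to 1.46) in CD4 T cells and 0.985 (0.817 to 1.18) in Foxp3 cells.

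Il7r thus stood higher under combo in CD8 T, Trdc, NK and CD4 T cells, and in DC with a ratio of 1.41 (1.12 to 1.79). In all of these classes Il2rb stood lower. The opposite direction of Il7r was seen in B cells, from 44.5 to 15.1 CPM, and in neutrophils, from 23.0 to 14.1, which with Mono/Mac cells (13.2 and 5.97 CPM) were the lowest levels under combo. In B cells the ratio of 0.338 went to 0.808 when cells with an Mki67 or Top2a UMI, genes of dividing cells, were left out. In neutrophils the ratio of 0.613 went to 0.839 when centred on the median of all genes and to 0.675 without the cell filter, which ended the call. The ratio in CD8 T cells was 1.46 when each cell was given equal weight and 1.47 without dividing cells, so the 1.5-fold mark was not reached there. The same held for Trdc cells without dividing cells (1.40) and with a gate of at least 2 Cd3e UMIs (1.48). At 2000 UMIs, an Il7r UMI was found in 5.21% (4.37% to 6.15%) of lenvatinib NK cells and 12.6% (10.7% to 14.7%) of combo NK cells. B cells gave 4.66% and 2.94%. The lenvatinib share in NK cells was thus near that of B cells, and the combo share was above that of B cells. B cells were not a clean background for Il7r, since their ratio depended on dividing cells. By level, lenvatinib NK cells (31.3 CPM) lay below B cells (44.5) and above Mono/Mac cells (13.2), with intervals apart. Whether the lenvatinib share in NK cells exceeds background was therefore not decided.

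Il2rb and Il7r were then counted in the same cells. Among CD8 T cells thinned to 2000 UMIs, 49.0% held Il2rb only under lenvatinib and 34.5% under combo. Il7r only was found in 8.34% and 15.0%, and both genes in 14.5% and 12.5%. CD4 T cells with Il7r only made up 20.5% (16.3% to 25.2%) and 33.3% (28.8% to 37.9%). Foxp3 cells held both genes most often under lenvatinib, in 46.2% of 329 cells. Under combo it was 31.0% of 42 cells, whose wide interval of 17.6% to 47.1% reached that of lenvatinib. That interval also covered the combo shares of CD4 T (28.8%) and Trdc cells (27.8%), so no class led there. NK cells were mostly Il2rb only, at 85.9% and 71.1%, and cells with both genes were 4.77% and 10.7%. The share with both genes was close to the product of the single shares in most of these classes, for example 14.5% against 14.5% in lenvatinib CD8 T cells and 10.7% against 10.3% in combo NK cells. In lenvatinib Trdc cells it was lower, at 24.1% (20.5% to 27.9%) against a product of 29.2%.

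**Figure D2:**
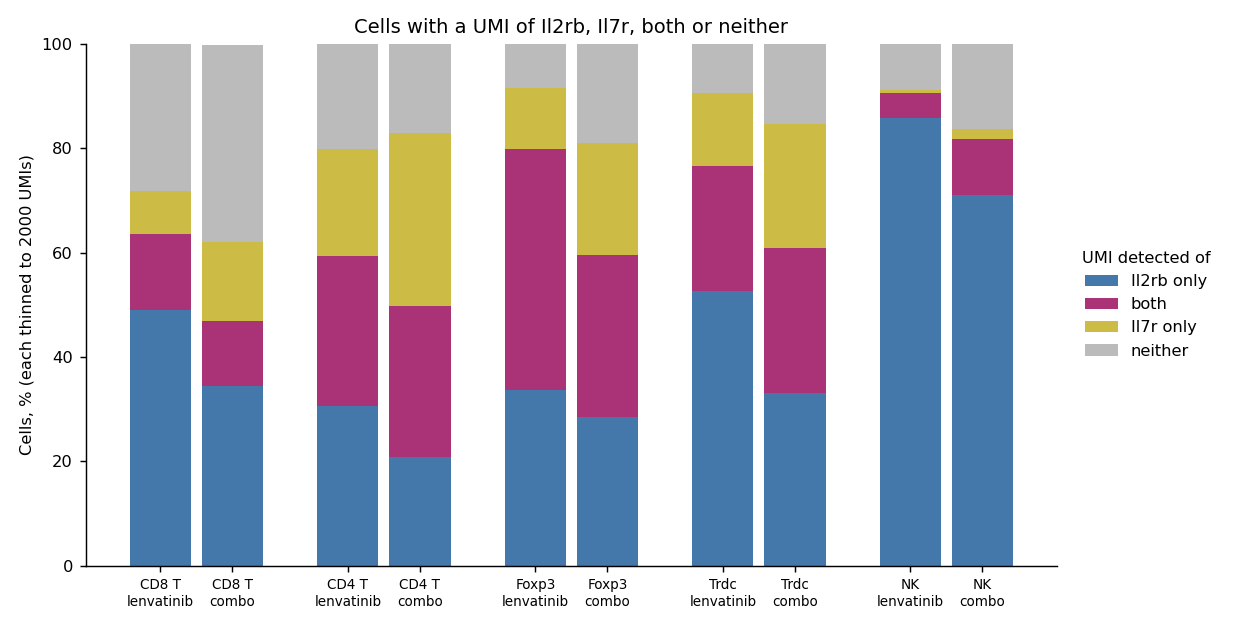
Share of cells (%, each thinned to 2000 UMIs) with a UMI of Il2rb only, of both genes, of Il7r only or of neither, in 5 lymphoid classes of each library. The Il2rb-only part is smaller and the Il7r-only part larger under combo in each class, with 42 combo Foxp3 cells behind the fewest-cell bar.

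Il2rg, the shared gamma chain itself (chromosome X from 101264378 to 101268255), was close between libraries in CD8 T, NK, Trdc and B cells. It had 277 and 272 CPM in CD8 T cells, 308 and 319.9 in NK cells, 302 and 322 in Trdc cells and 213 and 237 in B cells. The ratios in these 4 classes were 0.983 (0.946 to 1.02), 1.04 (0.996 to 1.09), 1.07 (0.974 to 1.17) and 1.12 (0.984 to 1.27), intervals that all included 1. CD4 T cells had 329 and 292 CPM, a ratio of 0.887 with an interval below 1 (0.799 to 0.985). Values past 1.5-fold lower were found in Foxp3 cells, 378 against 231 CPM, and in neutrophils, 56.3 against 32.3, with ratios of 0.611 (0.465 to 0.790) and 0.573 (0.465 to 0.711). The Foxp3 ratio came within 1.5-fold when gates asked for 2 UMIs and with equal weight per cell (0.690), and the neutrophil ratio when centred on the median of all genes (0.785). DC had 65.8 and 89.2 CPM, a ratio of 1.36 (1.08 to 1.71). That ratio was 1.06 with equal weight per cell and 0.947 without dividing cells, so its direction did not hold.

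Il21r, the receptor chain for IL-21 from helper T cells (chromosome 7 from 125603429 to 125633570), was found at similar levels in T and B cells under lenvatinib. Its lenvatinib levels were 127 CPM in CD8 T cells, 120.0 in B cells, 116 in Foxp3 cells, 114 in CD4 T cells and 105 in Trdc cells, with overlapping intervals between neighbours in that order. Combo values were 112, 88.9, 64.9, 80.3 and 105 CPM. There CD8 T cells (107 to 117) overlapped Trdc cells (92.0 to 119). CD8 T cells lay above B (78.1 to 101), CD4 T (69.9 to 91.8) and Foxp3 cells (38.4 to 102), while Trdc cells overlapped B and Foxp3 cells. NK cells held less, at 47.2 and 54.5 CPM. The ratio was 0.510 (0.368 to 0.714) in Mono/Mac cells, where the level went from 37.4 to 19.1 CPM. The difference in the thinned share of Mono/Mac cells turned direction at 1000 UMIs. Ratios were 0.560 (0.326 to 0.906) in Foxp3 cells from 18 combo UMIs, 0.705 (0.583 to 0.853) in CD4 T and 0.741 (0.616 to 0.892) in B cells. CD8 T cells had 0.879 (0.829 to 0.932), Trdc cells 0.996 (0.849 to 1.17) and NK cells 1.16 (1.04 to 1.29).

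Il4ra, which binds IL-4 with the gamma chain and IL-13 with Il13ra1, lies near Il21r on chromosome 7 from 125552120 to 125579474. It had no class of its own, with lenvatinib levels between 46.7 CPM in DC and 104 in neutrophils. In B cells it went from 95.9 to 48.5 CPM, a ratio of 0.506 (0.401 to 0.636) that came to 0.676, within 1.5-fold, when centred on the median of all genes, and 37.9% of all B-cell genes were lower by 1.5-fold or more. In CD8 T cells it went from 93.2 to 65.4, a ratio of 0.701 (0.651 to 0.755). CD4 T cells (53.7 and 62.7 CPM) and Mono/Mac cells (76.3 and 73.1 CPM) had intervals of the ratio that included 1. In the B-cell gate the lenvatinib library also held hemoglobin RNA, with Hba-a1 at 950.4 CPM against 1.10 under combo. With mitochondrial, ribosomal and hemoglobin genes left out of the total, the Il4ra ratio in B cells was 0.511.

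Il15, the cytokine that myeloid cells hold on Il15ra and present to neighbouring NK and T cells, lies on chromosome 8 from 82331632 to 82403222. Its level was highest in neutrophils in both libraries, at 58.1 CPM (48.4 to 69.3) under lenvatinib and 53.2 (49.0 to 57.7) under combo. The neutrophil ratio was 0.916 (0.753 to 1.12). Mono/Mac cells had 14.6 (9.01 to 22.3) and 20.6 CPM (17.3 to 24.3), and every lymphoid class was between 2.10 and 14.4 CPM. The intervals of the ratio included 1 in 8 of 9 classes, the exception being B cells, which had 4 and 18 UMIs. Over all cells the level was 6.20 CPM under lenvatinib and 14.0 under combo. Neutrophils held 21.0% of all Il15 UMIs under lenvatinib and 46.5% under combo, beside their numbers of 623 and 1516 cells. NK cells held 24.6% and 4.68% of these UMIs, and cells that met no gate 30.2% and 28.4%. A UMI of Il15 at 2000 UMIs was found in 9.69% (7.21% to 12.7%) and 13.3% (11.6% to 15.2%) of neutrophils, against 0.466% and 0.784% of B cells. Thinning left out 138 of 623 lenvatinib and 58 of 1516 combo neutrophils. Median depths of all neutrophils were 2571 and 4938 UMIs.

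Il15ra (chromosome 2 from 11705290 to 11734317) was scarce everywhere. The highest lenvatinib level was 23.7 CPM (17.3 to 31.7) in Foxp3 cells, from 45 UMIs, and combo had 18.0 there from 5 UMIs. CD8 T cells had 11.5 and 13.0 CPM, NK cells 7.82 and 8.09, and Mono/Mac cells 8.32 and 8.65. All 9 intervals of its ratio included 1. At this depth no difference in Il15ra was detectable in any class.

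Cish, a feedback inhibitor that STAT5 induces, lies on chromosome 9 from 107296026 to 107302784. It was highest in Foxp3 cells, at 298 CPM (274 to 324) under lenvatinib and 219.8 (168 to 282) under combo. CD4 T cells had 248 CPM (227 to 271) and 136 (122 to 151), a ratio of 0.548 (0.478 to 0.629). Trdc cells (135 and 127 CPM), CD8 T cells (87.5 and 85.3) and NK cells (60.1 and 57.7) had ratios of 0.944 to 0.975, with intervals that included 1. In CD4 T cells thinned to 2000 UMIs, 39.8% (34.5% to 45.2%) of lenvatinib and 20.5% (16.7% to 24.6%) of combo cells held a Cish UMI. B cells gave 3.73% and 1.57%. The CD4 T gate excluded cells with a Foxp3 UMI, yet Ikzf2, a gene of regulatory T cells, was at 473 CPM in lenvatinib and 111 in combo CD4 T cells, and the part of such cells in the Cish difference was not tested.

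Socs1, which blocks JAK kinases below many cytokine receptors (chromosome 16 from 10782240 to 10785536), stayed close between libraries in lymphoid cells. It had 71.9 and 80.3 CPM in CD8 T cells, 93.2 and 84.8 in CD4 T cells, 91.1 and 90.1 in Foxp3 cells, 68.2 and 71.1 in Trdc cells and 64.8 and 71.2 in NK cells. The ratios ran from 0.910 to 1.12. Neutrophils had 38.5 and 19.4 CPM, a ratio of 0.503 (0.388 to 0.658), or 0.689 when centred on the median of all genes.

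Socs3, the brake on STAT3 signals such as that of IL-6, lies on chromosome 11 from 117966079 to 117970047. Under lenvatinib the myeloid classes led, with 273 CPM in Mono/Mac cells, 213 in neutrophils and 161 in DC. Under combo these had 295, 149 and 170.3 CPM, and Trdc and CD4 T cells overlapped neutrophils and DC. Lymphoid classes all had more under combo. B cells went from 29.9 (22.6 to 38.7) to 93.0 CPM (81.9 to 105), CD4 T cells from 91.2 to 155, Trdc cells from 116 to 157, NK cells from 111 to 143 and CD8 T cells from 86.3 to 100.2. The ratios were 3.11 (2.33 to 4.23) in B cells, 1.70 (1.42 to 2.03) in CD4 T cells, 1.35 (1.17 to 1.54) in Trdc cells, 1.29 (1.21 to 1.38) in NK cells and 1.16 (1.09 to 1.24) in CD8 T cells. Foxp3 cells gave 1.57 (0.991 to 2.39) from 27 combo UMIs, an interval that included 1. That ratio was 1.24 without the cell filter, 1.25 with equal weight per cell and 1.49 without dividing cells. After thinning, 6.06% of lenvatinib and 17.1% of combo B cells held a Socs3 UMI. The summed neutrophil genes were also higher under combo in these classes other than Foxp3 cells. When lymphoid cells with over 5% of their UMIs in S100a8 and S100a9 were left out, an alternative chosen after seeing the data, the ratio was 3.26 in B cells, 1.73 in CD4 T cells, 1.53 in Foxp3 cells, 1.33 in NK cells, 1.29 in Trdc cells and 1.16 in CD8 T cells.

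The members were next counted per class against all genes measured there. A gene counted as measured if it reached 20 CPM in either library and 20 UMIs in the pair. In CD8 T cells 1 of 8 measured members (Il7r) was higher and 1 (Il2rb) lower by 1.5-fold or more, while 3.10% and 10.9% of 5710 genes passed in each direction. CD4 T cells had 1 higher (Socs3) and 2 lower (Il2rb and Cish) of 8, with 3.65% and 22.9% of all genes. In Foxp3 cells 1 of 9 was higher (Socs3) and 3 lower (Il2rb, Il2rg and Il21r), with 13.1% and 23.9% of all genes, and 48 combo cells behind them. Trdc cells had 1 higher (Il7r) and 1 lower (Il2rb) of 8, with 3.43% and 16.0%. NK cells had 1 higher (Il7r) and 0 lower of 8, with 3.62% and 11.5%.

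B cells and neutrophils had high shares of lower genes in general. In B cells 1 of 6 measured members was higher (Socs3) and 3 were lower (Il2rb, Il7r and Il4ra), beside 4.55% and 37.9% of all genes. Neutrophils had 0 higher and 5 lower of 8 (Il2rb, Il2rg, Il7r, Cish and Socs1), beside 4.74% and 39.7%. Mono/Mac cells had 0 higher and 2 lower of 7 (Il2rb and Il21r), beside 5.29% and 17.4%, and DC 0 higher and 1 lower of 7 (Il2rb), beside 6.75% and 11.2%. Summed over the 9 classes, 6 of 69 values were higher and 18 lower. The median gene was itself below a ratio of 1 in every class, with a log2 ratio of -0.17 in CD8 T cells, -0.14 in NK cells, -0.42 in B cells and -0.45 in neutrophils. Relative to that median the ratio of Il2rb was 0.653 in CD8 T cells, 0.745 in NK cells and 0.346 in B cells, and that of Il7r was 1.83 in CD8 T cells.

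At a fold of 2 the list of members was shorter. Il7r in NK cells and Socs3 in B cells were the 2 higher values, where 1.96% and 2.40% of all genes were as much higher. The 7 lower values were Il2rb in Foxp3, B, Mono/Mac, neutrophil and DC cells, Il7r in B cells and Cish in neutrophils, where 10.6% of all genes were as much lower in Foxp3 cells, 12.8% in B cells, 6.60% in Mono/Mac cells, 14.5% in neutrophils and 2.17% in DC. No member passed this fold in CD8 T cells (1.38% of all genes higher and 1.61% lower), CD4 T cells (1.30% and 5.65%) or Trdc cells (1.41% and 3.36%). In the remaining directions, 4.38% of all genes were higher in Foxp3 cells, 1.72% in Mono/Mac cells, 1.89% in neutrophils and 2.36% in DC, and 1.16% were lower in NK cells, with 0 members.

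**Figure D3:**
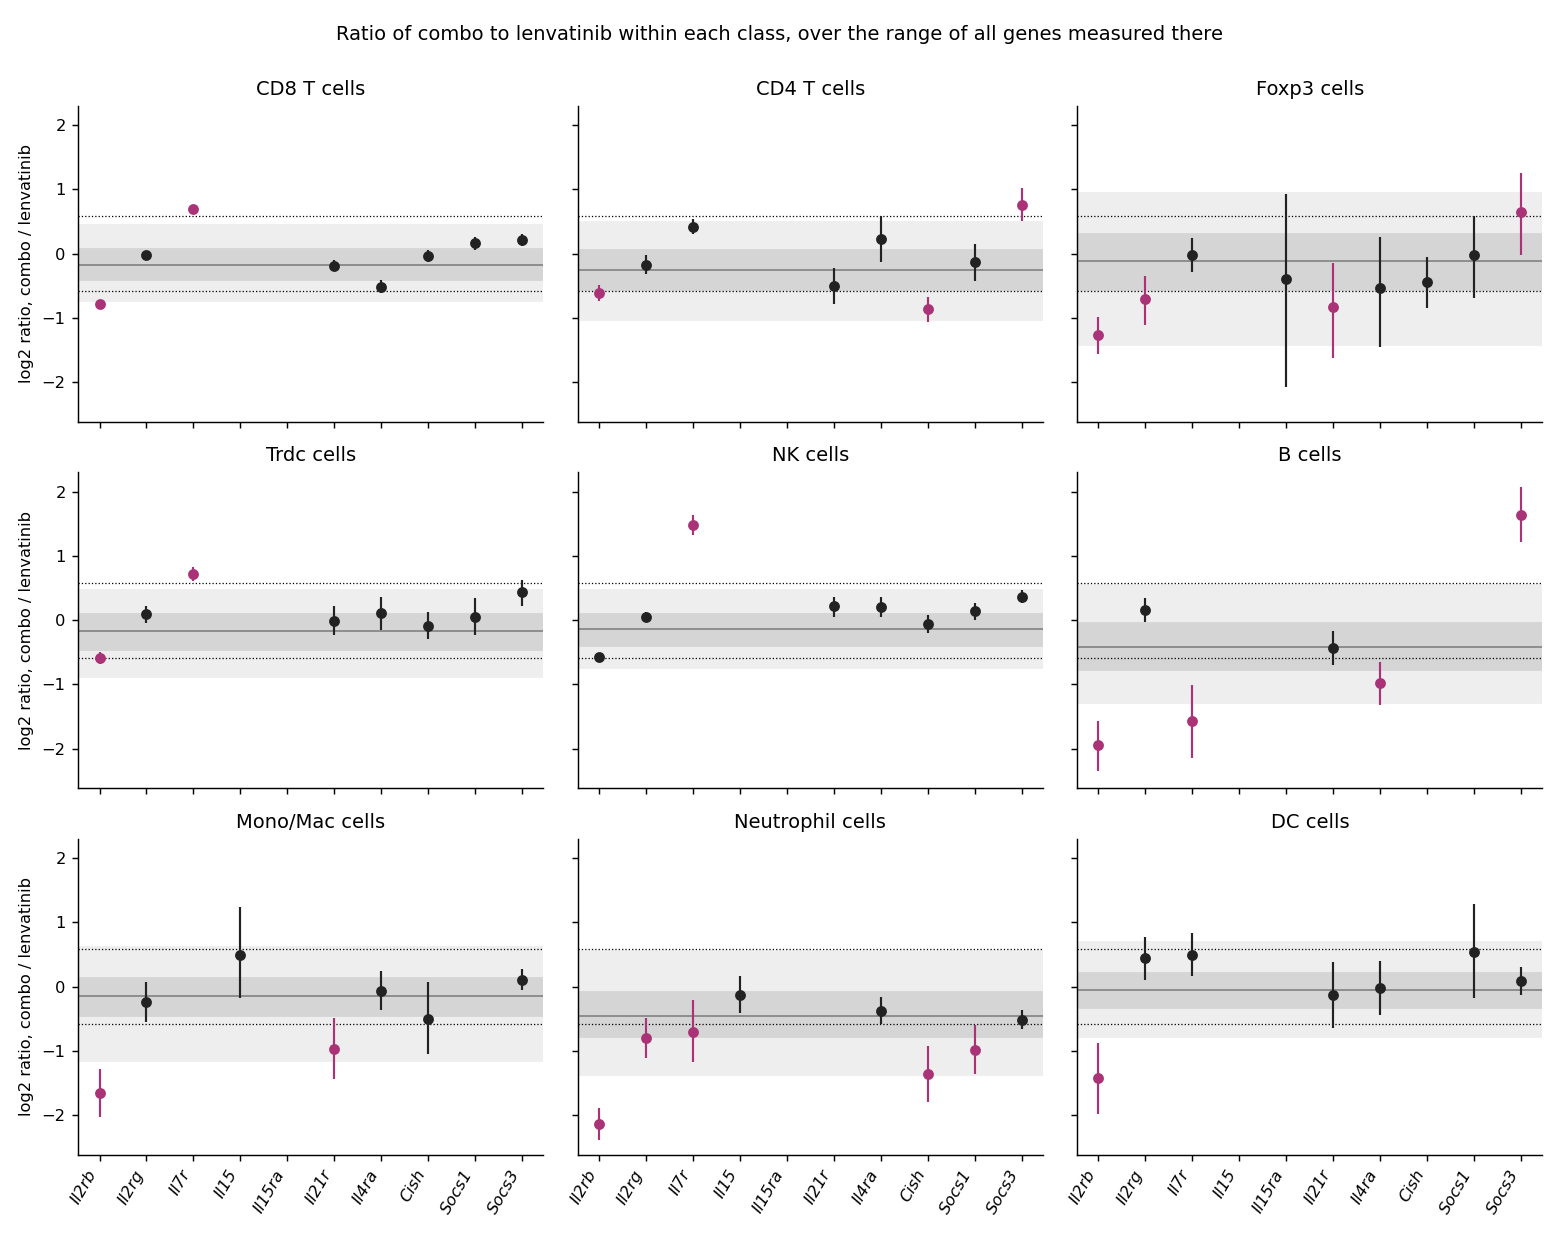
Log2 ratio of combo to lenvatinib for each measured member in 9 classes, with exact 95% counting intervals; grey bands span the 5th to 95th and the 25th to 75th percentiles of all genes measured in the class, the grey line is their median and dotted lines mark 1.5-fold. Purple points lie past 1.5-fold: Il7r above the line in CD8 T, Trdc and NK cells, Socs3 in CD4 T, Foxp3 and B cells, and Il2rb below it in every class but NK.

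NK cells were split by Itga1, which marks tissue-resident cells of the liver, and Itga2, which marks circulating NK cells. Itga1 cells without Itga2 made up 18.3% and 18.1% of NK cells, and Itga2 cells without Itga1 23.3% and 19.8%. Cells with neither gene were the most, at 51.4% and 59.9%, and 7.02% and 2.30% held both, so most NK cells were not assigned. Median depths were 7618 and 9076 UMIs in Itga1 cells and 7418 and 6964 in Itga2 cells. The groups were not thinned to equal depth. Eomes, a factor of circulating NK cells, was lower in Itga1 cells, at 179.7 against 357 CPM under lenvatinib. Il21r and Cish were higher in Itga1 cells, at 66.7 against 29.9 CPM and 81.5 against 41.0 CPM under lenvatinib, and at 73.0 against 44.5 and 85.8 against 45.0 under combo. Socs3 was lower there, at 73.3 against 122 CPM under lenvatinib and 111 against 165 under combo. Il7r was higher under combo in both, with ratios of 2.44 (1.92 to 3.11) in Itga1 cells and 2.50 (1.89 to 3.30) in Itga2 cells. Il2rb was lower in both, with ratios of 0.662 (0.630 to 0.696) and 0.774 (0.735 to 0.814).

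**Figure D4:**
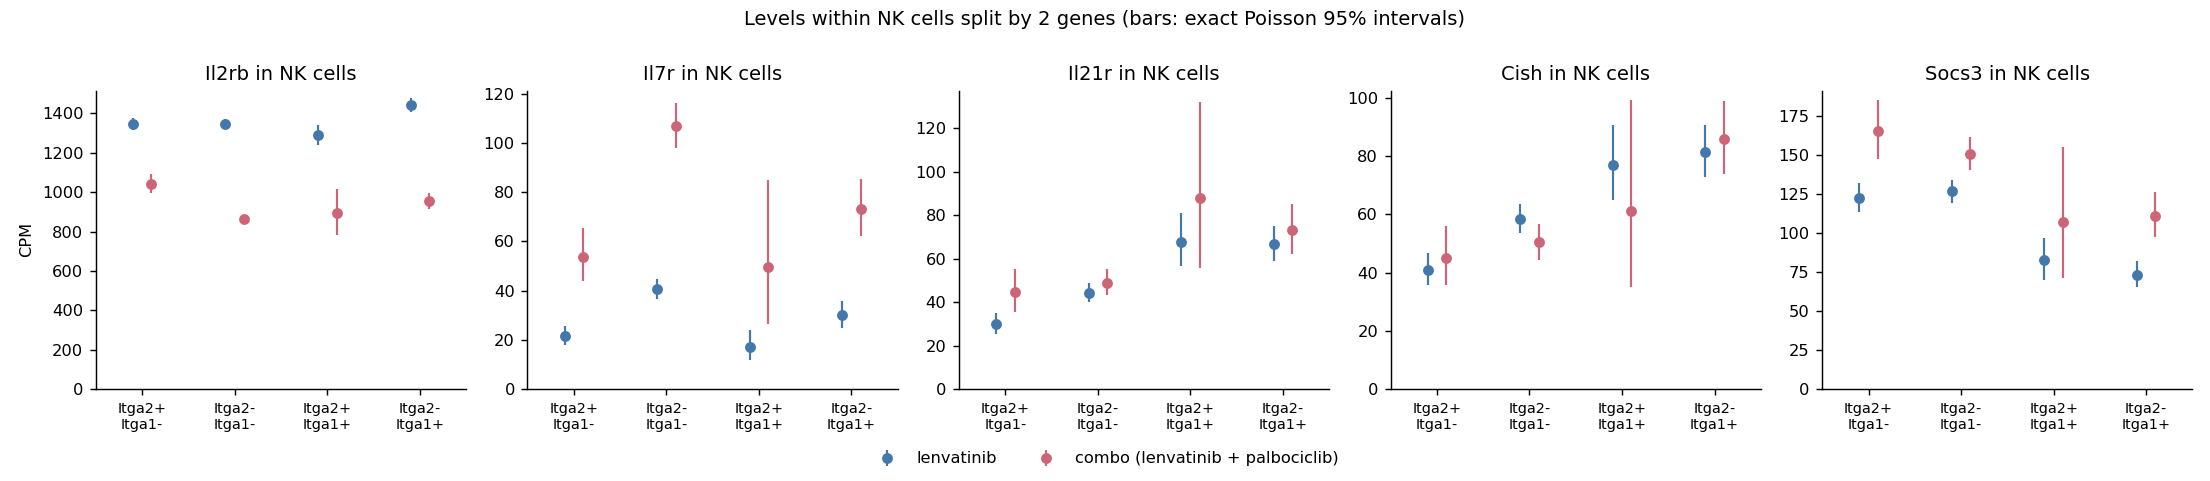
Levels (CPM) of Il2rb, Il7r, Il21r, Cish and Socs3 in NK cells split by Itga1 and Itga2 UMIs, with lenvatinib in blue, combo in red and bars for exact Poisson 95% intervals. In each of the 4 groups of NK cells Il2rb is lower and Il7r higher under combo, and Il21r and Cish are higher in Itga1 cells than in Itga2 cells of the same library.

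T cells of all 4 classes were also split by UMIs of Mki67 or Top2a, found in 35.9% of lenvatinib and 17.3% of combo T cells. Dividing T cells held less Il7r than the others, at 177 against 275 CPM under lenvatinib and 267 against 376 under combo. Il2rb was close between them, at 638 against 668 CPM and 347 against 386. The library difference was present in both, with Il2rb at 0.544 (0.516 to 0.573) in dividing and 0.578 (0.560 to 0.596) in other T cells, and Il7r at 1.51 (1.42 to 1.62) and 1.37 (1.32 to 1.42). Cish was 0.942 (0.849 to 1.04) in dividing and 0.775 (0.726 to 0.827) in other T cells. These sums pool classes whose shares differ between libraries, and within classes the Cish ratio without dividing cells was 0.913 in CD8 T, 0.965 in Trdc, 0.678 in Foxp3 and 0.454 in CD4 T cells.

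Of 10 other chains and ligands of the family, 1 was measured in CD8 T cells and 2 each in CD4 T, Foxp3, Trdc and NK cells. Il2ra, the IL-2 receptor alpha chain, had 352 and 288 CPM in Foxp3 cells, a ratio of 0.818 (0.641 to 1.03). In CD4 T cells it went from 55.2 to 32.5 CPM, where Ikzf2 was at 473 and 111 CPM. The part of regulatory T cells in that Il2ra difference was not tested. Crlf2, the partner of Il7r in the TSLP receptor, was measured in all classes. It passed 1.5-fold in B cells only, from 36.7 to 56.6 CPM, where 4.55% of all genes were higher. Il13ra1, the partner of Il4ra, went from 171 to 104 CPM in neutrophils. The ligand Il2 reached at most 19.4 CPM, in combo CD4 T cells, and Il7 had at most 22 UMIs in any class.

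Kinases and STAT factors (6 genes) were all measured in CD8 T, CD4 T and NK cells and 0 passed 1.5-fold there. Their median ratios were 0.859, 0.901 and 0.796, beside 0.888, 0.839 and 0.906 for all genes. Of all genes, 3.10%, 3.65% and 3.62% were higher there and 10.9%, 22.9% and 11.5% lower. Trdc cells had 1 lower of 6, beside 16.0% of all genes, which was Jak3, the kinase of the gamma chain, at 28.4 and 17.6 CPM, a ratio of 0.619 (0.422 to 0.890). Jak1, which binds the partner chains, had 473 and 394 CPM in CD8 T cells, and Stat5b had 47.2 and 41.8. In Foxp3 cells 2 of 6 were lower, beside 23.9% of all genes, Stat3 at 322 and 187 CPM and Stat5a at 101 and 14.4, the latter from 4 combo UMIs. Neutrophils had 3 lower of 4, including Jak1 at 361 and 210.2 CPM, beside 39.7% of all genes and a median ratio of 0.730 over them.

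Other brakes (9 genes) had 1 lower of 6 measured in CD8 T cells, 2 of 7 in CD4 T cells and 1 of 7 in NK cells, beside 10.9%, 22.9% and 11.5% of all genes. Socs7 was the gene that was lower in each of these classes, for example 28.1 and 13.2 CPM in NK cells. Socs2, which STAT5 induces, was the 1 gene higher in NK cells, from 17.8 to 27.3 CPM, beside 3.62% of all genes. Among 6 genes induced by STAT5 or tied to survival, 0 of 5 passed in CD8 T cells and 0 of 6 in NK cells. Of all genes, 3.10% were higher and 10.9% lower in CD8 T cells, and 3.62% and 11.5% in NK cells. Bcl2, which keeps lymphocytes alive, had 585 and 603 CPM in CD8 T cells and 414 and 469 in NK cells. In Foxp3 cells it had 127 and 43.2 CPM, a ratio of 0.341 (0.174 to 0.606) from 12 combo UMIs. It was the 1 lower of 5 measured there, beside 23.9% of all genes. Pim1, a kinase induced by STAT5, had 804 and 564 CPM in CD8 T cells and was past 1.5-fold in CD4 T cells, at 1140.1 and 757. It was the 1 lower of 4 measured in CD4 T cells, beside 22.9% of all genes. Other cytokine receptors (9 genes) had 1 lower of 6 in CD8 T cells (Il6st, 33.2 and 18.6 CPM) and 1 lower of 6 in NK cells (Il10ra, 41.9 and 23.1 CPM), beside the same shares of all genes in those classes.

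The genes whose log2 levels were most like those of each member were found over 18 points, the 9 classes in both libraries, which share depth and library and so are not independent. Nearest to Il2rb were Sh2d2a and Peak1 (Pearson r 0.972 each) and AW112010 (0.971). Il7r was nearest to Tnfsf11 (0.948), Tasp1 (0.938) and Lat (0.932), and Il2rg to Pdcd4 (0.970). Il15 was nearest to the myeloid genes Ccr1 (0.946) and Ptgs2 (0.942). Cish was nearest to Rora (0.983), Gprin3 and Gata3 (0.963 each), and Socs1 to the T-cell genes Trbc1 (0.974) and Zap70 (0.970). Il4ra had no close neighbour, with 0.753 for Ssh2 as the highest value.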

How the data were processed

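For each of the 2 libraries, the deposited files hold UMI counts that the authors had not normalized, with 1 value per gene and barcode. The submitters' processing notes name Cell Ranger 5.0.1 and the matrix header names 6.0.1, with reads mapped to mm10. Gene coordinates come from GENCODE for the same build. Cells with over 6000 genes or over 25% mitochondrial UMIs were removed. The 2 libraries held 95123833 and 90165246 UMIs after this filter. Cells were classed by marker UMIs without clustering, counts were summed per class and library and scaled to CPM of the class total, and intervals were exact Poisson, exact conditional (for ratios) and exact Clopper-Pearson (for shares), at 95%, from scipy 1.17.1. A gene was measured in a class with at least 20 CPM in 1 library and 20 counts over both. For detection, each cell was thinned to 2000 UMIs, and cells below that did not enter. These were, for example, 81 and 33 CD8 T cells and 138 and 58 neutrophils. Doublets were called per library with Scrublet (scanpy 1.11.5, expected rate 6%), were 4.46% of lenvatinib and 2.76% of combo cells, and were kept. All members were named; genes of the 5 other lists were named only at 20 CPM or more in a class, apart from ligands given as scarce, and each member's 3 nearest genes were found by Pearson correlation of log2(CPM + 1), of which the closest are named. The steps were tested on simulated data. Members and lists were chosen with earlier results of these data known, so no list is independent evidence. No p-value was computed. A planned split of CD8 T cells is not reported here.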

Additional observations from a re-analysis of the deposited data

Results flagged for a closer look

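Il7r was past 1.5-fold in opposite directions in different cell classes, which is what marked it for a closer look. It was higher under combo in CD8 T cells (1.62), Trdc cells (1.65) and NK cells (2.80), and lower in B cells (0.338) and neutrophils (0.613). The lower value in B cells was 0.808 without dividing cells, and that in neutrophils was 0.839 when centred on the median of all genes and 0.675 without the cell filter. In these classes 37.9% and 39.7% of all genes were lower by 1.5-fold or more. The higher value was 1.46 in CD8 T cells with equal weight per cell, and 1.47 in CD8 T and 1.40 in Trdc cells without dividing cells, and 1.48 in Trdc cells when gates asked for 2 UMIs. The difference between classes was not tested, since each class has 1 library per condition. The lower values rest on 85 and 41 UMIs in B cells and 49 and 155 in neutrophils, against 4173 and 4516 in CD8 T cells.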

How the results depend on the processing

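Over 9 alternatives to the ratios of the 69 measured values and 1 that subtracted B-cell background, 563 of 630 values stayed within the 95% counting interval, and 0 of the values past 1.5-fold turned direction. Of the counts over all classes, 6 higher and 18 lower became 10 higher and 12 lower when ratios were centred on the median of all genes, and 2 higher and 7 lower at a fold of 2. Beside the 6 and 18, 3.10% to 13.1% of all genes in a class were higher and 10.9% to 39.7% lower. At a fold of 2 these shares were 1.30% to 4.38% and 1.16% to 14.5%. Under the other alternatives the counts ran from 4 to 9 higher and from 16 to 22 lower. Shares of all genes were not counted for centring or the other alternatives. Centring ended the lower calls of Il2rb in CD4 T (0.783) and Trdc cells (0.748), Il4ra in B cells (0.676) and Il2rg (0.785), Il7r (0.839) and Socs1 (0.689) in neutrophils. Il2rb was within 1.5-fold in 8 of 10 alternatives in CD4 T cells and 6 of 10 in Trdc cells. No paired analysis was possible because each condition has 1 library and the result comes from no test. At 1000 and 3000 UMIs in place of 2000, 126 of 132 differences in thinned shares stayed within the intervals. Among shares whose intervals did not overlap, 1 turned direction, Il21r in Mono/Mac cells, where combo minus lenvatinib was 0.225 percentage points at 1000 UMIs. Depth limits Il15 and Il15ra in lymphoid cells and every value of the 48 combo Foxp3 cells.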
